A study of Mus musculus with 8 samples.

Results

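Cytosolic ribosomal protein genes encode the protein parts of the ribosome that translates messenger RNA outside the mitochondria. They were taken here as every gene whose symbol begins with Rpl or Rps and a digit, with Rpsa, Rplp0, Rplp1 and Rplp2, and without the Rps6k kinases and names marked as pseudogenes. The rule found 95 names, of which 88 had an array probe matched by transcript accession, out of 20887 such genes on the array. Of these, 86 passed the filter on dim probes and were tested among 12706 genes: 45 of the large subunit, 31 of the small subunit, and 10 copies or other names that share the prefix. Rpl32p, Rpl37, Rpl6l, Rps12l1, Rps27rt, Rps3a2 and Rps3a3 had no matched probe and were not analysed here. The copies Rpl10l and Rpl39l had probes but were not tested, because Rpl10l was well above background on 1 LPS array and on 0 immature arrays, and Rpl39l on 3 arrays of each group.

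The genes were measured in dendritic cells that C57BL/6 mice supplied, grown from bone marrow monocytes of females. In the LPS group, immature cells received lipopolysaccharide (LPS), the outer membrane component of Gram-negative bacteria, at 50 ng/ml overnight and were collected on day 7. In the immature group the cells were collected on day 6 without LPS. Both cultures contained IL-4 and 10 ng/ml of GM-CSF, and each group had 4 samples, each on its own one-colour Agilent array. No untreated day 7 cells were among the samples, so LPS and the further night in culture cannot be told apart. The labels do not say whether the replicates were separate animals or cultures, so p-values measure the spread between these samples, which may be technical.

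A ribosome joins a small subunit, which reads the messenger RNA, to a large subunit, which forms the peptide bonds. Cells make the proteins of both subunits in matched amounts, and free ribosomal proteins that are not built into a subunit are usually degraded. Messages of ribosomal proteins typically begin with a C followed by an unbroken stretch of pyrimidines, the terminal oligopyrimidine (TOP) motif. Their translation is controlled through the kinase mTORC1 and the RNA-binding protein LARP1. In dendritic cells, stimulation by LPS is known to bring an early increase and a later decline of protein synthesis. Arrays measure RNA and say nothing of how much of it was translated.

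The start regions are shown because the TOP motif is the sequence feature that ribosomal protein messages are known to share. RefSeq promoters of build GRCm38.p6 were at hand for 65 of the 86 tested genes, and the rule's names had 81 promoters in all. A C followed by at least 4 further pyrimidines (C or T) stood at the annotated start in 15 of the 81 promoters (18.5%), against 2.51% of all 32851 promoters. Anywhere from 12 bases before to 18 bases after that start, such a run occurred in 63.0% of the 81, against 36.1% of all. Below are 30-base windows from 4 genes that fell after LPS and carry the run at the start, 3 that carry it and did not pass the test, both genes that were called higher, and Rpl5, which fell and whose window holds no such run. Calls are by the brightest probe of each gene, and a dimmer Rps15a probe gave 0.08 ± 0.10 log2, not called. Each window reads 5′ to 3′ on the gene's strand. The annotated start is base 13, and capitals mark the run that lies over or nearest to it.
Rps18, chr17:33955648-33955677, minus strand: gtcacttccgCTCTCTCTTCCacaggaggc
Rpl28, chr7:4792953-4792982, plus strand: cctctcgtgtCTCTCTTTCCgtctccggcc
Rps6, chr4:86857350-86857379, minus strand: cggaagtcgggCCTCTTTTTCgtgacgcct
Rps15a, chr7:118116130-118116159, minus strand: tctttctgccatCTTCCCTCgccggtgagt
Rplp2, chr7:141447639-141447668, plus strand: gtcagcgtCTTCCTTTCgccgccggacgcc
Rps27, chr3:90213631-90213660, minus strand: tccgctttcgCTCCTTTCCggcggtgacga
Rpl35, chr2:39005114-39005143, minus strand: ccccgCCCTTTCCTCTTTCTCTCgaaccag
Rps24, chr14:24490666-24490695, plus strand: gcgctggggtCCTTCCTTgcgcgttgatat
Rps27l, chr9:66946074-66946103, plus strand: ctcctccccgccgCCTCTatcccggaagtt
Rpl5, chr5:107900516-107900545, plus strand: cacgtcgcttgcgtgctggtggtgctacat

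Of the 13 tested genes of both subunits with a run at an annotated start, 8 were called lower and 0 higher after LPS. Of the 43 with a promoter and no run at its start, 23 were called lower. Rps24, which was called higher, is among the 43. Its run covers the annotated start, but base 13 is a T, and the count required a C there. The 43 are therefore not a group of genes without a run near the start. Of all genes tested, 24.6% were called lower and 31.4% higher. The difference between these shares was not tested. CCGGAAG, the core bound by ETS factors, was searched on both strands of the whole promoter window and found in 33.3% of the 81 promoters, against 8.86% of all. The E-box CACGTG was in 9.88% against 7.15%. The motifs were counted independently, so 1 promoter can hold both.

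After LPS the ribosomal protein genes were mostly lower by a small amount, and 1 of them, the copy Rps27l, was clearly higher. Of the 86 tested, 48 fell, 2 rose and 36 did not pass (limma, Benjamini-Hochberg adjusted p of 0.05 over all genes). Of all genes tested, 56.1% were called, 24.6% lower and 31.4% higher. The median change was −0.26 log2 for the family, against 0.06 log2 for all genes, and no member reached a 2-fold change. On 57 members the 4 LPS arrays lay entirely below the 4 immature arrays, and on 3 entirely above, where 22.2% and 30.1% of all genes did so. Values are log2 signals relative to each array's 75th percentile, so a gene can be lower here only relative to the other RNA on its array. In these bulk samples fewer cells of a type and less RNA per cell cannot be told apart.

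**Figure D1:**
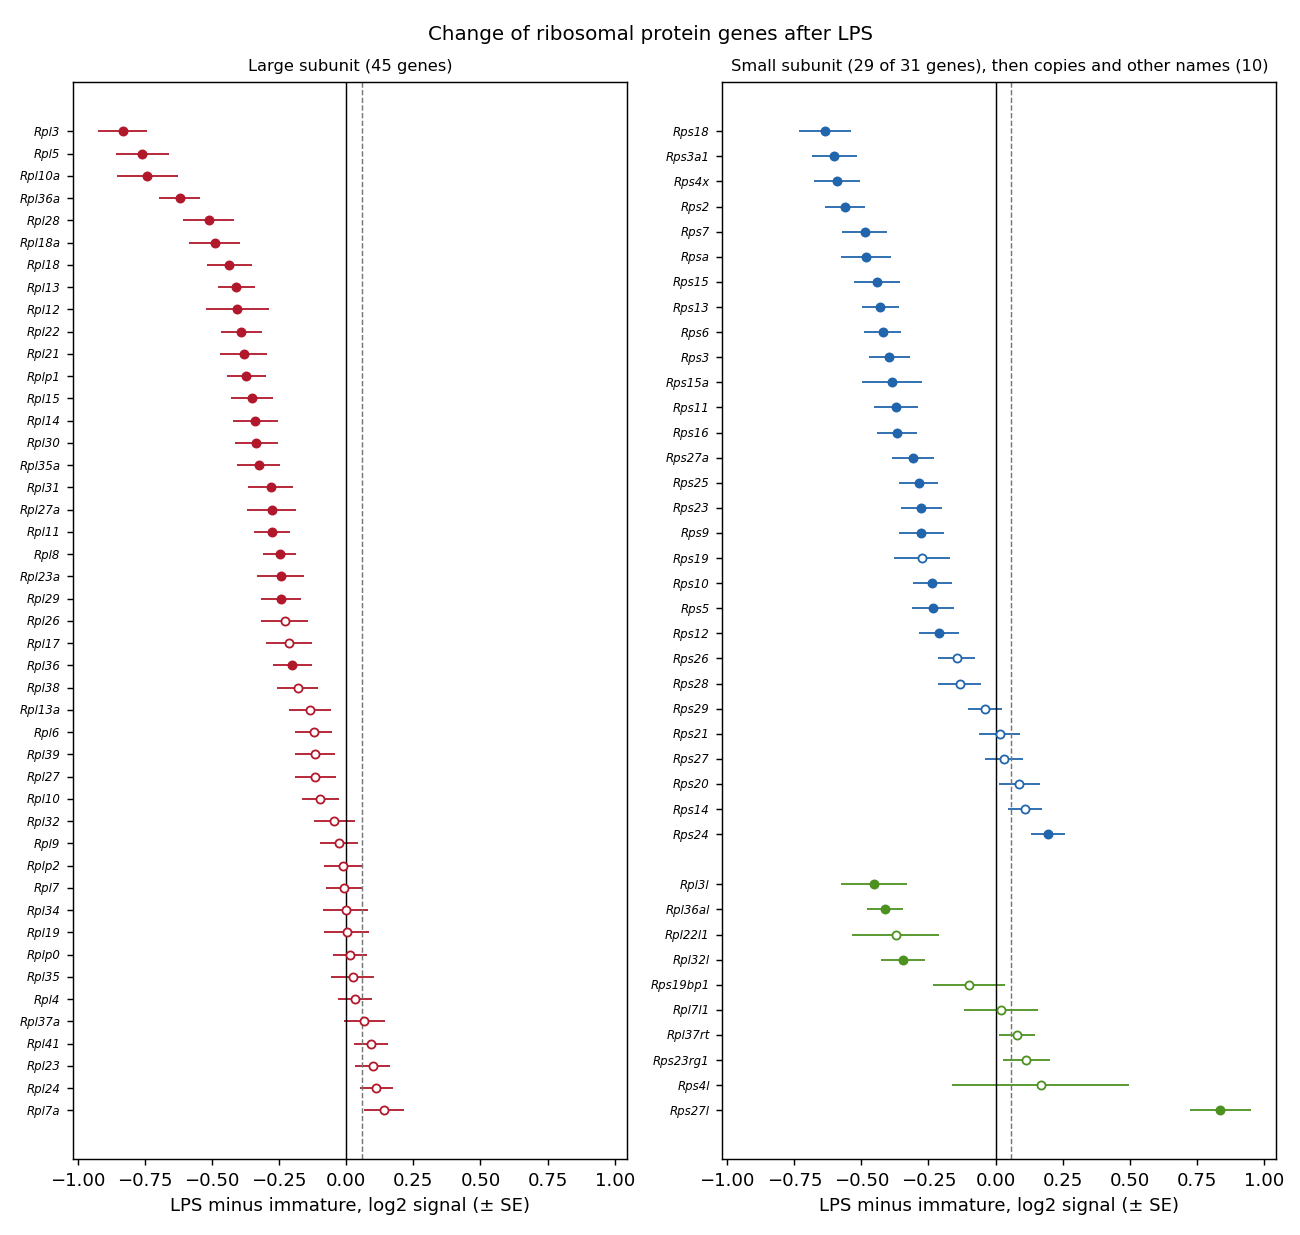
Change of 84 of the 86 tested genes, LPS minus immature in log2 signal (x axis), with the standard error as a bar, one gene per row. Large subunit genes are red, small subunit genes blue, copies and other names green; filled points passed the test, the solid line is 0 and the dashed line is the median of all genes tested, 0.06. Most points lie left of 0, Rpl3 lies farthest left at −0.83 and Rps27l farthest right at 0.84.

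Of 45 large subunit genes, 23 were lower, 0 higher and 22 did not pass, with a median change of −0.23 log2. Rpl3, whose protein lies near the site of peptide bond formation, read 7.14, 7.11, 6.93 and 6.81 on the LPS arrays, against 7.80, 7.80, 7.91 and 7.82 on the immature arrays. All 4 LPS values were lower than any immature value, and Rpl3 fell 1.78-fold (log2 change −0.83 ± 0.09 SE, limma adjusted p = 0.000132). Rpl5 binds 5S ribosomal RNA together with Rpl11 and delivers it to the large subunit. It read 5.96, 5.99, 5.77 and 5.62 after LPS, against 6.62, 6.56, 6.70 and 6.52 in immature cells. Its groups did not overlap either, and it fell 1.69-fold (−0.76 ± 0.10, limma adjusted p = 0.000329).

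Its partner Rpl11 read 8.64, 8.66, 8.58 and 8.49 on the LPS arrays, against 8.83, 8.87, 8.93 and 8.85 on the immature arrays. The 4 LPS values were again all lower, but by 1.21-fold (−0.28 ± 0.07, limma adjusted p = 0.00893). Other Rpl11 probes gave −0.22 ± 0.07, called lower, and 0.11 ± 0.06, not called. Rpl10a, a protein of the flexible L1 stalk near which spent transfer RNA leaves, read 7.95, 7.98, 7.92 and 7.52 after LPS, against 8.52, 8.54, 8.71 and 8.56 in immature cells. LPS replicate 4 was the lowest of the 8 arrays, and the gene fell 1.67-fold (−0.74 ± 0.11, limma adjusted p = 0.000789). Without that array Rpl10a was still called lower, as it was in all 21 alternative settings that gave it a value. Rpl36a, a component of the large subunit, averaged 6.73 ± 0.10 on the LPS arrays and 7.35 ± 0.06 on the immature arrays (SD, n = 4 each), a log2 change of −0.62 ± 0.08 (limma adjusted p = 0.000246).

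The acidic stalk, which recruits translation factors to the large subunit, did not move as a whole. Rplp0, the protein that anchors the stalk and a frequent reference gene, read 8.77, 8.74, 8.79 and 8.67 after LPS, against 8.69, 8.70, 8.78 and 8.74 in immature cells. The groups overlapped, with a log2 change of 0.01 and a 95% interval from −0.13 to 0.16. Another of its 3 probes was called lower, at −0.25 ± 0.07. Rplp2 likewise overlapped, with averages of 8.84 ± 0.07 and 8.85 ± 0.07 in LPS and immature cells (SD, n = 4 each) and a log2 change of −0.01 ± 0.07. Rplp1, which pairs with Rplp2 on the stalk, fell: it read 8.03, 8.05, 8.07 and 7.85 on the LPS arrays, against 8.35, 8.37, 8.42 and 8.36 on the immature arrays (−0.37 ± 0.07, limma adjusted p = 0.0028).

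Rpl13a, known for a role outside the ribosome in silencing inflammatory messages in human monocytes, averaged 7.11 ± 0.12 after LPS and 7.24 ± 0.05 in immature cells (SD, n = 4 each). By this brightest of its 3 probes the groups overlapped (−0.13 ± 0.08, limma adjusted p = 0.179). The other 2 probes of Rpl13a were called lower, at −0.57 ± 0.11 and −0.59 ± 0.11. With each gene read by its brightest probe, Rpl4 and Rpl37a were the dimmest and the brightest of the large subunit. Their changes of 0.03 ± 0.06 and 0.07 ± 0.08 log2 did not pass. By the brightest probe of each gene the upper end of the subunit was Rpl7a at 0.14 ± 0.08, whose groups overlapped and which did not pass either (limma adjusted p = 0.145). Its 3 other probes gave −0.19, −0.48 and −0.30 log2, and 2 of them were called lower, so Rpl7a has no settled direction.

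Of 31 small subunit genes, 22 were lower, 1 higher and 8 did not pass, with a median change of −0.29 log2. Rps18, a protein of the head of the small subunit, read 6.79, 6.79, 6.68 and 6.48 after LPS, against 7.23, 7.28, 7.48 and 7.29 in immature cells. All 4 LPS values were lower, and it fell 1.55-fold (−0.64 ± 0.10, limma adjusted p = 0.000736), and its start window, shown above, carries a TOP-like run.

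Rps3a1, a protein of the small subunit's platform side, read 6.45, 6.42, 6.32 and 6.19 after LPS, against 6.90, 6.90, 7.07 and 6.91 in immature cells. Immature replicate 3 was the highest array, the groups did not overlap, and the change was −0.60 ± 0.08 log2 (limma adjusted p = 0.000461). Rps4x, the X-linked form of its protein, averaged 6.61 ± 0.13 after LPS and 7.20 ± 0.08 in immature cells (SD, n = 4 each), a change of −0.59 ± 0.09 (limma adjusted p = 0.000625). Rps6, the protein that S6 kinases phosphorylate downstream of mTORC1, read 7.45, 7.42, 7.33 and 7.26 on the LPS arrays, against 7.77, 7.76, 7.83 and 7.78 on the immature arrays. All 4 LPS values were lower, and the gene fell 1.34-fold (−0.42 ± 0.07, limma adjusted p = 0.00122).

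Rpsa, the laminin receptor homologue of the small subunit, averaged 7.94 ± 0.15 on LPS arrays and 8.43 ± 0.08 on immature arrays (SD, n = 4 each). By this brightest probe it fell by 0.48 on the log2 scale (SE 0.09, limma adjusted p = 0.00256). The next brightest Rpsa probe gave 0.09 ± 0.08 and was not called, while its dimmer probes were called lower, at −0.51 and −1.02. Rps3, which lines the entry of the messenger RNA channel and is also known as a partner of NF-kB, averaged 6.56 ± 0.11 and 6.95 ± 0.04 in LPS and immature cells. It fell as well (−0.40 ± 0.08, limma adjusted p = 0.00256). Rps19, the gene most often mutated in human Diamond-Blackfan anaemia, read 7.08, 7.03, 7.01 and 6.67 after LPS, against 7.22, 7.16, 7.33 and 7.17 in immature cells. The groups did not overlap, yet the test fell just short of the threshold (−0.27 ± 0.10, limma adjusted p = 0.0532). With each gene read by its brightest probe, Rps21 and Rps14 were the dimmest and the brightest of the small subunit. Their changes of 0.02 ± 0.08 and 0.11 ± 0.06 log2 did not pass.

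Rps24 was the only gene of either subunit called higher. It read 8.29, 8.24, 8.24 and 8.16 on the LPS arrays, against 8.002, 8.03, 8.02 and 8.10 on the immature arrays. The groups were separate by a narrow gap, and the change was 0.19 ± 0.06 log2 (1.14-fold, limma adjusted p = 0.0308). The call held in 7 of 21 alternative settings and was lost in the others, such as with the arrays left unscaled (−0.01). Also among the losses were the fits without LPS replicate 1, 2 or 3 or immature replicate 1 or 2, where Rps24 had limma adjusted p = 0.0641 to 0.089. The brightest of its 3 probes gave the call, while the other probes, assigned to other transcripts of the gene, gave 0.00 ± 0.07 and 0.00 ± 0.11.

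**Figure D2:**
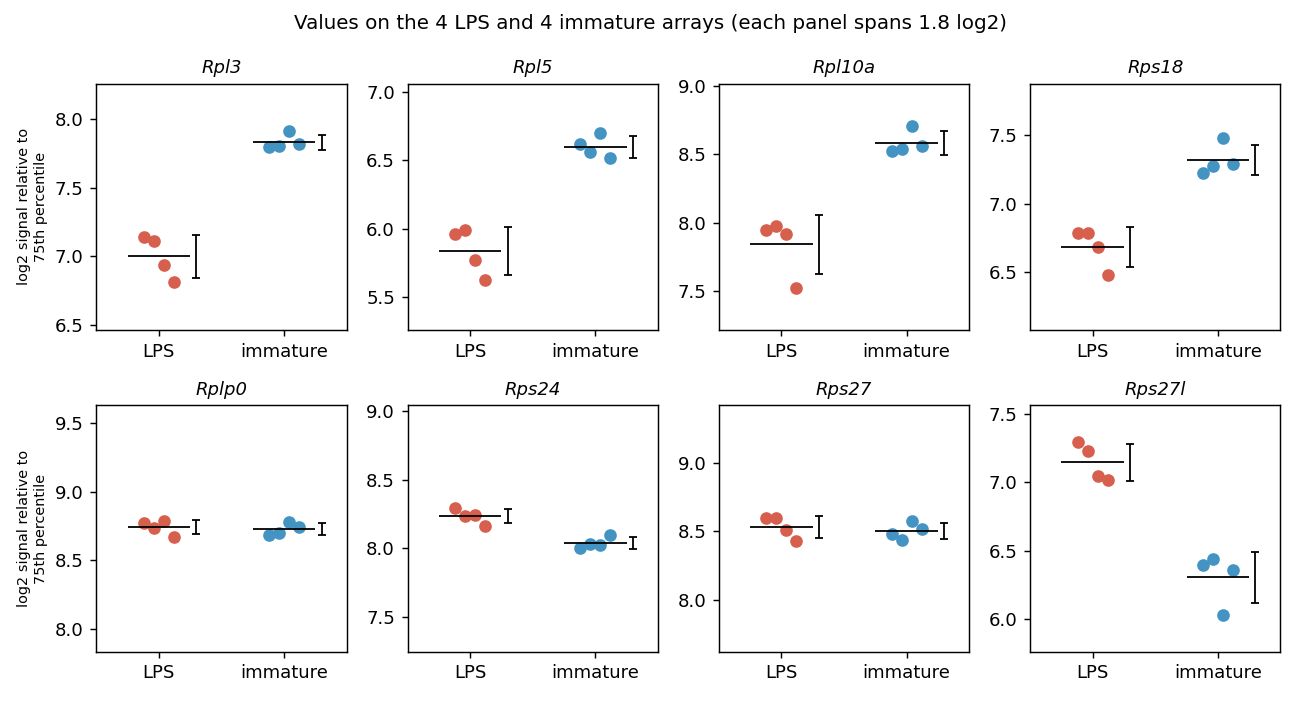
Log2 signal relative to the array's 75th percentile (y axis, 1.8 log2 in every panel) on the 4 LPS arrays, left, and the 4 immature arrays, right, for 8 genes. Points are arrays in replicate order, the line is the mean and the bar at its side the SD. Rpl3, Rpl5, Rpl10a and Rps18 show LPS arrays entirely below, Rplp0 and Rps27 overlap, and Rps24 and Rps27l show LPS arrays above.

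The large and small subunits were then set side by side. A larger share of small subunit genes was called lower (71.0%, against 51.1% of large subunit genes), and the median change of the large subunit minus that of the small was 0.06 log2. Within arrays, where the scaling between arrays plays no part, the median level of the large subunit minus that of the small was −0.06, 0.06, −0.08 and 0.06 on the LPS arrays, against 0.03, 0.04, 0.02 and 0.02 on the immature arrays. These averaged −0.003 ± 0.075 and 0.027 ± 0.013 (SD, n = 4 each), so the LPS arrays lay on both sides of the immature values. By this measure the large subunit was not the less reduced one, and the sign of the difference also turned with the choice of probe. It was −0.19 with the dimmest tested probe of each gene, −0.004 with a gene's probes averaged and −0.007 over all probes. No difference between the subunits beyond the spread of these arrays and probes was shown.

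The share of genes called lower followed the brightness of the probe in both subunits. At a mean log2 level of 8 or less, 13 of 19 large subunit genes and 13 of 15 small subunit genes fell. Above that level 10 of 26 and 9 of 16 did. Across the 76 genes of both subunits, probe brightness and change had a Spearman rho of 0.48 and a Pearson r of 0.35, against a rho of 0.04 across all genes tested. Genes are not independent replicates, all points share the same 8 arrays, and brightness reflects the probe as well as the RNA, so this is a description only. The standard set had a median brightness at percentile 99.1 of the genes tested, the top of the array's range, although no spot was flagged as saturated. The slope of the spike-in signals was 0.973 ± 0.009 on the LPS arrays and 0.947 ± 0.007 on the immature arrays (SD, n = 4 each), and its part in these changes was not tested.

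Several members have more than 1 probe, and the probes of a gene were compared. Of 51 members with more than 1 tested probe, the dimmest probe gave a lower change than the brightest in 40 (78.4%), against 53.5% of 3292 genes over the whole array. The median change was −0.50 log2 by the dimmest probe and −0.28 by the brightest. For Rpl21, a large subunit protein, the 3 probes gave −0.38 ± 0.09, −0.93 ± 0.09 and −1.49 ± 0.08 in order of falling brightness, each called lower. Rps6 gave −0.42, −0.63 and −0.88 in the same order, and all 3 probes were called lower. Rpl10a gave −0.74 and −0.75 and Rps2 gave −0.56 and −0.56, so that in these genes both probes read the same change.

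Probes of Rps12, a small subunit protein, disagreed in direction: the brighter fell (−0.21 ± 0.07, limma adjusted p = 0.0405) and the dimmer rose (0.26 ± 0.07, limma adjusted p = 0.0137). These p-values are from a fit of every probe on its own, adjusted over 16632 probes. Rps27a encodes a fusion of ubiquitin with a small subunit protein, and its probes gave −0.31 ± 0.08 and 0.22 ± 0.07, both called. These were 2 of 51 members, against 51 of 3292 genes on the array. In the fit over genes Rps12 had limma adjusted p = 0.0374. There its lower call was lost when any 1 array except LPS replicate 2 was left out (limma adjusted p = 0.0528 to 0.0795). The direction of Rps12 and Rps27a is therefore left undecided here. Taken as separate tests, 106 probes of the family were called lower and 5 higher, where 24.6% and 30.3% of all 16632 probes were. Ribosomal protein genes have many processed pseudogenes, whose RNA a probe may share, and which probes do so was not tested.

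**Figure D3:**
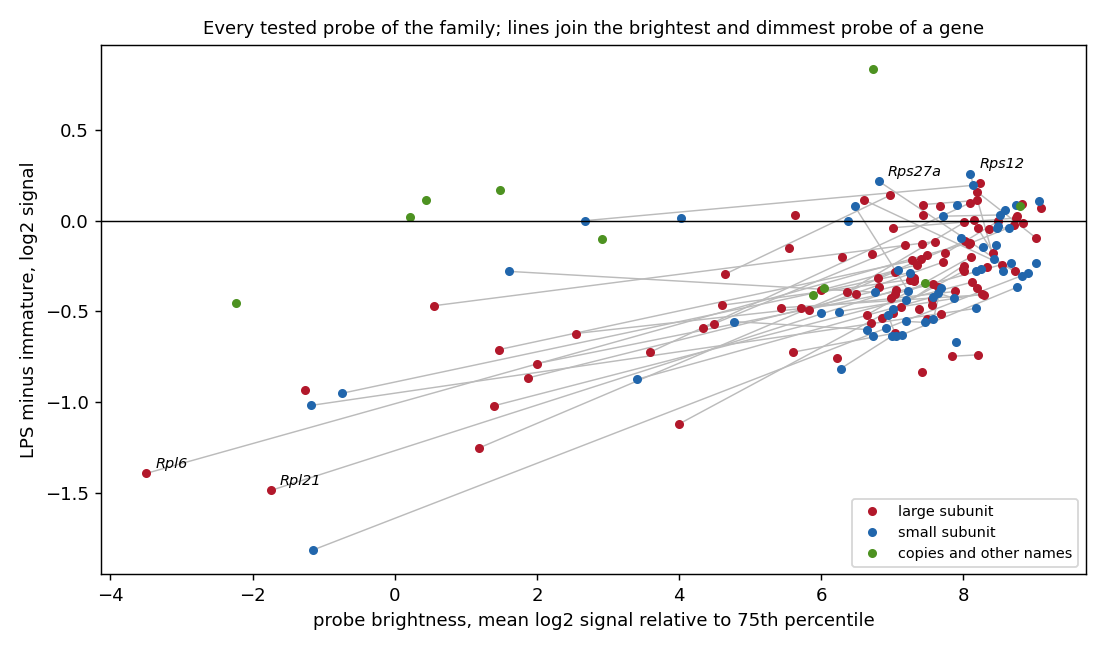
Change of every tested probe of the family, LPS minus immature in log2 signal (y axis), against its mean log2 signal relative to the 75th percentile (x axis). Grey lines join the brightest and the dimmest probe of a gene; red is the large subunit, blue the small subunit and green the copies and other names. The 20 probes under a level of 3 had a median change of −0.75, and the 53 over 8 a median of −0.11.

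Of 10 copies and other names 3 fell, 1 rose and 6 did not pass, where 24.6% of all genes tested fell and 31.4% rose. Rps27l is a copy of Rps27 that is known as a target of p53. It read 7.30, 7.23, 7.05 and 7.01 on the LPS arrays, against 6.40, 6.44, 6.03 and 6.36 on the immature arrays. Every LPS value was higher than every immature value, and Rps27l rose 1.79-fold (0.84 ± 0.11, limma adjusted p = 0.000412). Its parent Rps27 read 8.60, 8.60, 8.51 and 8.43 after LPS, against 8.48, 8.44, 8.57 and 8.52 in immature cells. The groups of the parent overlapped, with a change of 0.03 and a 95% interval from −0.13 to 0.19, so the intervals of parent and copy (0.577 to 1.099) did not meet.

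Rpl3l, known as the form of Rpl3 in skeletal muscle and heart, had a dim probe, at −2.45 ± 0.08 after LPS and −2.00 ± 0.24 in immature cells (SD, n = 4 each). It fell by 0.45 on the log2 scale (SE 0.12, limma adjusted p = 0.0133), and its parent Rpl3, above, fell too. The call of Rpl3l was lost with normexp background correction (−0.15, limma adjusted p = 0.134). Rpl36al, the copy of Rpl36a, averaged 5.68 ± 0.08 and 6.09 ± 0.03 in LPS and immature cells and also fell (−0.41 ± 0.07, limma adjusted p = 0.00117). Rpl22l1 read 6.07, 6.03, 5.96 and 5.35 after LPS, against 6.12, 6.19, 6.23 and 6.37 in immature cells. Its change of −0.37 ± 0.16 did not pass (limma adjusted p = 0.0785), while its parent Rpl22 fell by 0.39 on the log2 scale (SE 0.08, limma adjusted p = 0.00275). Rpl32l fell (−0.34 ± 0.08, limma adjusted p = 0.00781), whereas its near-identical parent Rpl32 gave −0.04 ± 0.08 and did not pass, and their probes may share RNA.

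Among the copies that did not pass, Rpl7l1 gave 0.02 ± 0.14 and its parent Rpl7 gave −0.01 ± 0.07. The dimmest of 4 Rpl7 probes was called lower, at −0.39 ± 0.10. Rps4l gave 0.17 ± 0.33, with arrays that scattered between 0.96 and 2.09 after LPS and between 0.88 and 2.04 in immature cells. Rpl37rt gave 0.08 ± 0.07 and Rps23rg1 gave 0.11 ± 0.09. Rpl37 itself had no matched probe. Whether the bright Rpl37rt probe, at percentile 99.8 of the genes tested, also reads Rpl37 RNA was not tested. Rps19bp1, which the prefix brings in although its product is a binding partner of Rps19 rather than a ribosomal protein, gave −0.10 ± 0.13. Rpl10, the parent of the untested Rpl10l, gave −0.10 ± 0.07 by its brightest probe and did not pass, while its other probes gave 0.21, called higher, and 0.16, not called. Rpl39, the parent of the untested Rpl39l, gave −0.12 ± 0.07 by its brightest probe and did not pass, and its dimmest probe was called lower at −0.47 ± 0.10.

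To see which members moved apart from the family, each array was also scaled to the median of the 86 tested members. On this scale 10 were lower and 23 higher, where 13.1% and 49.4% of all genes were. Neither share of the 86 members was above that of all genes. A call states only that a gene changed unequally to the family. Of the 10, 5 belonged to the large subunit (Rpl3, Rpl5, Rpl10a, Rpl36a and Rpl28) and 5 to the small subunit, among them Rps18, Rps3a1, Rps4x and Rps2. Rpl3 stood farthest below, at −0.54 ± 0.08 log2 relative to the family, and Rps27l farthest above, at 1.13 ± 0.12. Of the 23 higher, 14 were of the large subunit, 6 of the small subunit and 3 were copies. Among them were Rps24 at 0.48 ± 0.09, Rpl24 at 0.40 ± 0.09 and Rplp0 at 0.30 ± 0.09, each by its brightest probe. Their other probes were not tested on this scale. On the scale used elsewhere, the other Rplp0 probes gave −0.25 ± 0.07, near the family median of −0.26, and −0.04 ± 0.08. The other Rps24 probes gave −0.002 ± 0.07 and −0.0005 ± 0.11. The dimmer Rpl24 probe gave 0.09 ± 0.09, against 0.11 ± 0.06 by the brightest.

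**Figure D4:**
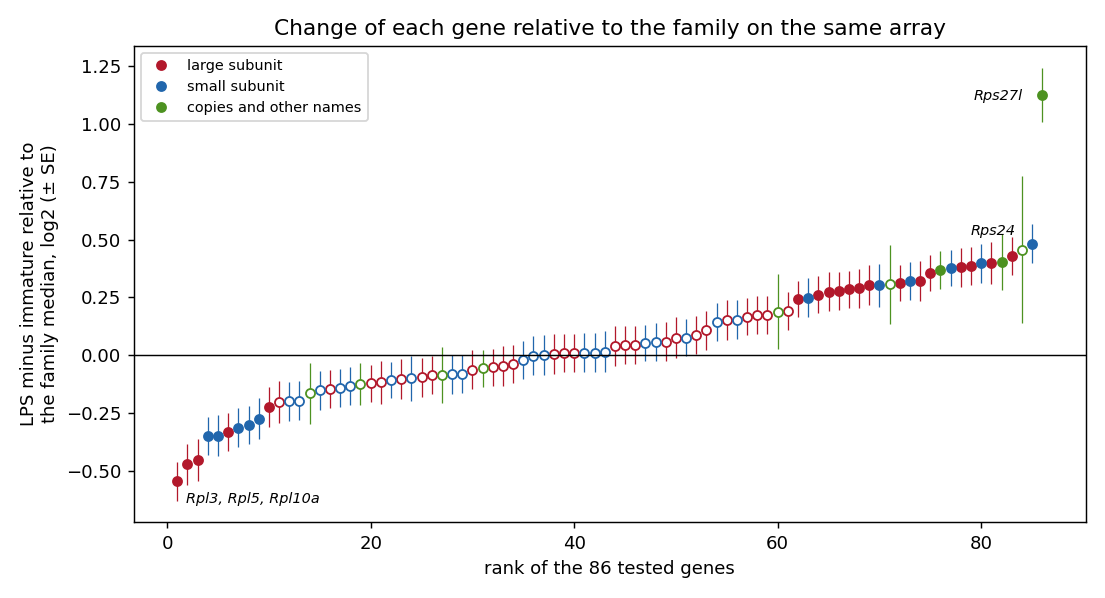
Change relative to the family median on the same array, LPS minus immature in log2 (y axis, bars are SE), for the 86 tested genes by rank (x axis). Filled points passed the test over all genes; red is the large subunit, blue the small subunit and green the copies and other names. Rpl3 is lowest at −0.54, and Rps27l stands above the rest at 1.13.

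The family median moved with the scaling of the arrays and stayed below 0 and below the median of all genes under each of 4 other scalings. The family median was −0.43 log2 with arrays scaled to their median, −0.47 unscaled, −0.28 with spike-ins and −0.25 after quantile normalization. The median over all genes moved with it, to −0.11, −0.15, 0.04 and 0.01 log2. The family median minus that of all genes was −0.32 in the used scaling and −0.26 after quantile normalization. It was also −0.32 with the array median, unscaled or with spike-ins. These settings shift all genes of an array alike, so they could not change this difference. With the array median, unscaled, with spike-ins and after quantile normalization, members called lower numbered 61, 66, 45 and 52. Of all genes, 32.6%, 35%, 22.3% and 27.5% were called lower. Across the used scaling and the 5 others, 43 members were lower every time and 1, Rps27l, was higher every time. The same count was not made over all genes, so these numbers have no share of all genes to be set against. In the array signals themselves, summed over tested genes, the 76 genes of both subunits held 9.56% ± 0.56 on the LPS arrays and 11.9% ± 0.44 on the immature arrays (SD, n = 4 each). The copies and other names were left out of this share. Over all genes the used scaling called 3995 higher and 3127 lower, and scaling to the array median called 2631 higher and 4138 lower.

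**Figure D5:**
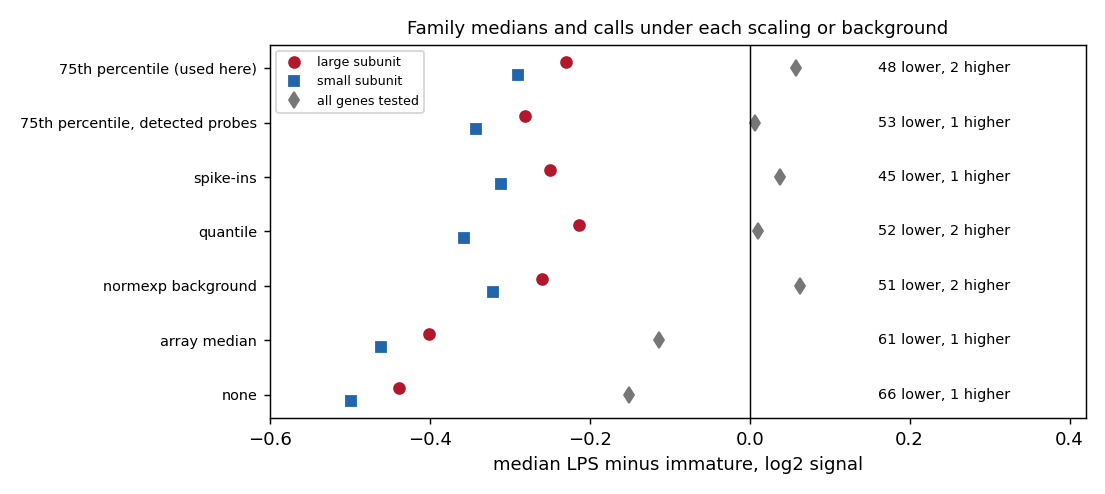
Median change, LPS minus immature in log2 signal (x axis), of the large subunit (red circles), the small subunit (blue squares) and all genes tested (grey diamonds) under 7 ways of scaling or correcting the arrays (rows). The text at the right gives members called lower and higher. The medians of both subunits lie left of 0 and of the median of all genes in every row. The distances between these medians are fixed by construction except with quantile normalization and normexp background.

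Array quality and cell makeup bear on these values. LPS replicate 4 had the lowest median of the 76 genes, 7.75, against 7.94 to 8.02 on the other LPS arrays and 8.07 to 8.16 on the immature arrays. Without it the family median was −0.20 log2 and 41 members were called lower. Immature replicate 3 differed most from the other immature arrays over all genes, with median absolute differences of 0.29 to 0.44 log2. Without it the median was −0.23, with 43 lower and 3 higher. All arrays lay on 1 slide with each group in its own row of the slide, so the row and LPS cannot be told apart.

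All 7 dendritic cell markers were well above background on every array, with a summed linear level relative to the 75th percentile of 925 to 1042 on the LPS arrays and 801 to 869 on the immature arrays. They did not move together: 3 fell (Itgax by 0.99, H2-Aa by 0.75 and Cd74 by 0.46 log2) and 4 rose (Ccr7, Cd86, Flt3 and Zbtb46). Ccr7, a chemokine receptor of mature dendritic cells, averaged 8.87 ± 0.04 after LPS and 6.75 ± 0.40 in immature cells (SD, n = 4 each). Markers of cycling cells fell in 5 of 5, by 1.38 to 2.44 log2, with a summed level of 14.0 to 29.2 after LPS and 63.1 to 110.9 in immature cells. Markers of neutrophils and their precursors fell in 5 of 5, with sums of 237 to 428 on the LPS arrays and 617 to 696 on the immature arrays. Macrophage markers summed to 312 to 370 after LPS and 314 to 367 in immature cells, where 1 of 4 rose and 1 fell. Their changes ran from −4.23 to 0.94 log2 with a median of −0.28, so the similar sums do not mean that each marker was unchanged. B cell and T cell markers were dim in both groups, with sums below 3 on each array. Whether the fall in cycling cell or neutrophil markers had a part in the ribosomal protein changes was not tested.

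Other genes of translation were counted from the same fit, in which 24.6% of all genes fell, 31.4% rose and the median change was 0.06 log2. Of 41 tested initiation factors 19 fell and 3 rose, with a median of −0.21 log2. Pabpc4, a poly(A)-binding protein, averaged 1.11 ± 0.05 after LPS and 2.01 ± 0.19 in immature cells (SD, n = 4 each), with separate groups, and fell (−0.91 ± 0.10, limma adjusted p = 0.000143). Eif2b3, a subunit of the exchange factor that recharges eIF2, fell as well (−0.93 ± 0.25, limma adjusted p = 0.0123), with overlapping groups. Eif4a2, an RNA helicase of the cap-binding complex, rose (0.78 ± 0.15, limma adjusted p = 0.00293).

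Of 16 elongation and release factors 10 fell and 2 rose, with a median of −0.52 log2. Eef2k, the kinase that inhibits elongation factor eEF2, averaged −3.24 ± 0.34 after LPS and −1.67 ± 0.32 in immature cells (SD, n = 4 each) and fell 2.96-fold (limma adjusted p = 0.000378). The Eef2k probe was dim, at percentile 12.7 of the genes tested, which limits the size of this change. Abce1, which recycles ribosomes after termination, fell 2.16-fold (−1.11 ± 0.24, limma adjusted p = 0.00467). Eif5a2, a form of the elongation factor eIF5A, rose (0.37 ± 0.08, limma adjusted p = 0.00526).

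Of 14 other genes with known TOP messages 7 fell and 0 rose, with a median of −0.19 log2. Ncl (nucleolin) read 4.36, 4.33, 4.34 and 4.27 on the LPS arrays, against 5.34, 5.46, 5.06 and 5.22 on the immature arrays, and fell 1.93-fold (limma adjusted p = 8.56e-05). Npm1 (nucleophosmin), like nucleolin a nucleolar protein of ribosome assembly, fell 1.58-fold (limma adjusted p = 0.000757). The list holds ribosomal proteins that the symbol rule leaves out: Rack1, on the head of the small subunit, fell (−0.19 ± 0.07, limma adjusted p = 0.0374), while Fau gave 0.15 ± 0.07 and did not pass.

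Among 24 genes of mTORC1 and TOP control 11 fell and 6 rose, with a median of −0.26 log2; the share that rose was not above the 31.4% of all genes. Rps6ka2, one of the ribosomal S6 kinases, fell by 1.28 and Deptor, an inhibitor of mTOR, by 1.05 on the log2 scale (limma adjusted p = 0.00213 and 0.000151). Ddit4, a stress-induced inhibitor of mTORC1, read 5.14, 5.54, 5.75 and 5.23 after LPS, against 1.65, 1.96, 4.92 and 4.31 in immature cells. The immature arrays differed widely among themselves, and the rise of 2.20 ± 0.71 (limma adjusted p = 0.0284) lost significance in 7 alternative settings. For Ddit4 these included leaving out any 1 LPS array (limma adjusted p = 0.0506 to 0.0665) or immature replicate 1 or 2 (0.062 and 0.0711). Among 14 genes of stress kinases and ribosome quality control 2 fell and 3 rose, both shares below the 24.6% and 31.4% of all genes. Eif2ak2, the interferon-induced kinase PKR, rose 2.26-fold (limma adjusted p = 0.00175), and Zfand2a rose 1.68-fold (limma adjusted p = 6.32e-05). Usp10, a deubiquitinase that acts on ribosomal proteins, fell 2.14-fold (limma adjusted p = 0.00852).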

How the data were processed

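Total RNA of 8 samples was labelled with Cy3 and hybridised to one-colour arrays, per the labels. Per the file headers the authors read them with Agilent Feature Extraction 11.0.1.1; the deposited processed signal is an intensity, background-subtracted and not scaled between arrays, and the deposited files also hold raw median and background intensity and flag columns (other) of 0 or 1. Outlier spots (122 to 206 per array) were left out, log2 signals of a probe's spots averaged, and each array's 75th percentile subtracted. Probes were named by accession in RefSeq's gene table, and each gene was its brightest probe, tested when well above background on all 4 arrays of a group. Tests used limma 3.58.1 (R 4.3.3, statmod 1.5.0, version 1.17.8 of data.table), two-sided, adjusted by Benjamini-Hochberg over 12706 genes and checked on simulated data. Single probes were fitted apart and adjusted over 16632 probes. Precision is limited by the number of arrays, with a median SE of 0.12 log2. Figures used matplotlib 3.10.9.

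The members and gene lists were chosen with earlier results of these data known, and the lists got no test. Genes named are the 8 largest decreases and all increases with separate groups, the copies with their parents, the stalk, Rpsa, Rpl5, Rpl11, Rps6, Rpl13a, Rps3, Rps19, Rpl10a, the brightest and dimmest of each subunit, members with opposed probes, and up to 3 genes per other list; Rpl21, Rps2, Rpl7a, Rpl24, Rpl28, Rack1, Fau, Rpl32, the dendritic cell markers and the copies Rpl32l, Rpl37rt and Rps23rg1 were chosen after their values were seen. Individual values of a few genes are not reported here; all counts include them except those of arrays that stood apart. The 22 alternatives covered scaling, background, filter, probe choice, replicate block, averaging of replicates and each array left out; the dimmest probe was added after seeing the data.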

Additional observations from a re-analysis of the deposited data

Results flagged for a closer look

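In 7 of 104 gene and group combinations screened, 1 of the 4 arrays stood apart from the others by a gap past Dixon's 95% limit for 4 values; chance alone gives about 1 in 20. In 4 of the 7 the array was LPS replicate 4, on the low side. Rpl10a read 7.52 there, against 7.92 to 7.98 on the other LPS arrays (gap 0.863 of the range). Rps3 read 6.39, against 6.60 to 6.63 (0.859). Rpl22l1 read 5.35, against 5.96 to 6.07 (0.841), and Rpl10 read 8.86, against 9.002 to 9.031 (0.831). Rps21 was high on LPS replicate 1, at 4.20 against 3.95 to 3.99 on the other LPS arrays (0.835). On immature replicate 3, Rps3a1 was high at 7.07, against 6.90 to 6.91 on the other immature arrays (0.946), and Eif5a2 was low at −1.004, against −0.83 to −0.80 (0.862). The part of each array in the changes was not tested beyond leaving it out.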

How the results depend on the processing

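Members called lower numbered 41 to 45 with single arrays left out, members called higher 1 to 3, the family median ran from −0.29 to −0.20 and the large minus small difference from 0.05 to 0.09; over all genes 3444 to 4294 were higher and 2719 to 3540 lower. Relative to the family median 10 members were lower and 23 higher, and over all genes 1661 lower and 6273 higher; by probe the family's counts were 106 and 5. Members higher numbered 1, with Rps24 lost, under the array median, no scaling, detected probes, spike-ins, no filter on dim probes, mean of probes, the replicate block and replicates 1 and 2 averaged. The family median was −0.43 under the array median, −0.47 unscaled and −0.39 by the dimmest probe. All genes called higher numbered 2631 under the array median, 2428 unscaled and 7646 without the filter. The large minus small difference was 0.14 after quantile normalization, −0.0042 by the mean of probes, −0.19 by the dimmest probe and −0.0071 over every probe. Signs turned for Rps24 unscaled (−0.014) and by its dimmest probe (−0.00047), Rplp0 unscaled (−0.19), Rpl7 (0.28), Rplp2 (0.28), Rpl11 (0.011) and Rps12 (0.076) relative to the family, Rpl11 (0.11), Rps12 (0.26) and Rps27a (0.22) by the dimmest probe, and Rps12 by the mean of probes (0.024); the cause was not tested. Same-numbered arrays of the 2 groups deviated together with correlations of −0.10 to 0.19. With so few arrays these values cannot exclude a pairing by number. With the replicate block 41 members were lower and 1 higher. Naming by accession only equals the used naming and was not run again. Dim probes limit Rpl3l, Rpl10l, Rpl39l and Eef2k.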
